A study of Arabidopsis thaliana with 4 samples.

Results

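The 9 genes of the protein arginine methyltransferase (PRMT) family of Arabidopsis thaliana were taken by their locus identifiers from the deposited gene counts. All 9 were found among 33341 counted genes, and all 9 were among the 20937 genes that passed the filter on low counts. PRMTs move a methyl group from S-adenosylmethionine to arginine side chains of histones, RNA-binding proteins and ribosomal proteins. Type I enzymes end at asymmetric dimethylarginine and type II enzymes at symmetric dimethylarginine. In Arabidopsis the family is known for its parts in flowering time, pre-mRNA splicing, the circadian clock and, through PRMT3, ribosome assembly.

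RNA was measured in whole seedlings of 3 genotypes, with 2 libraries of Col, the wild type, 1 library of atprmt3, a line named for the PRMT3 gene and titled atprmt3-2, and 1 library of rps2a2b, a line named for the RPS2A and RPS2B genes of ribosomal protein S2 and titled rps2a2b-1. All seedlings were 12 days old and were grown on MS medium with 1% sucrose in long days (16 h of light, 8 h of darkness) at 22 °C. The kind of mutation in each line, its genetic background and the number of seedlings behind a library were not given in the sources used here. The libraries held 15646735 and 15637192 counts in Col, 18650053 in atprmt3 and 15194770 in rps2a2b. The 2 Col libraries differed by no more than the noise of counting, with a mean chi-square of 0.989 per gene over 20569 genes (p = 0.858) and of 0.842 over the 9 PRMT genes. They were therefore summed and counted as 1 sample, which leaves 1 sample a genotype and no test of any difference below. The 95% intervals cover counting error only, and a second, wider interval multiplies the variance of the mutant libraries by 6.01 and that of summed Col by 11.02, from the disagreement between atprmt3 and rps2a2b over 4263 genes with 10 to 99 summed counts. No member lies in that range of counts. Over the 10200 genes in the members' own range of 190 to 1446 summed mutant counts, chosen after seeing the data, the factors were 9.67 and 18.3, and the intervals they give are called the widest. Both sets of factors come from 2 genotypes with 1 library each, and Col was not among them. They mix differences between the genotypes with noise and are not a spread between replicates. Differences between the mutants are read below with factors from that same contrast. The spread between batches of plants is unknown, and in whole seedlings more RNA per cell cannot be told apart from more cells of one kind.

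All members share a methyltransferase fold with a double-E loop, in which a pair of glutamates holds the substrate arginine. The coding sequence of that loop is shown because it is common to the family, differs between its branches, and shows how far the near copies differ. It was located in each gene by a search for a serine and a glutamate followed at a fixed spacing by a second glutamate. The residues just after the first glutamate had to match one of the known forms of the family's branches. Both the spacing and these residues are therefore part of the search. By that search each gene held the loop once. The stretch spans 33 bases, 5′ to 3′ on the coding strand (RefSeq, TAIR10.1), and capitals mark the 2 glutamate codons.
PRMT1A: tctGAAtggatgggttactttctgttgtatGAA
PRMT1B: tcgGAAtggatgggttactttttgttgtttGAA
PRMT3: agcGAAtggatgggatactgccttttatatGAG
PRMT6: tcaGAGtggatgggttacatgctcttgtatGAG
PRMT10: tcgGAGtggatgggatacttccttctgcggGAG
PRMT4A: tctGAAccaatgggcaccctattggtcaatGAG
PRMT4B: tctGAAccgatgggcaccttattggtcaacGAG
PRMT5: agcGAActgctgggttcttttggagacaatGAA
PRMT7: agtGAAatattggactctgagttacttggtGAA

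In PRMT1A, PRMT1B, PRMT3, PRMT6 and PRMT10 the first glutamate is followed by tryptophan, methionine and glycine codons. These residues, and the proline of PRMT4A and PRMT4B, were among the forms searched for and are not a finding. The in-frame motif GANTGGATGGGN was built from the loops of the 5 members with tryptophan, with N where they differ. It therefore occurs in those 5 by construction. Searched on the sense strand of the longest coding sequence of each gene, it occurred in 35 of 27562 coding genes (0.127%), which were these 5 members and 30 other genes. PRMT4A and PRMT4B have a proline codon in place of tryptophan, and PRMT5 and PRMT7 stand furthest from the rest, with 12 to 18 of 33 loop bases shared with any other member. The loop of PRMT1A matched that of PRMT1B at 30 of 33 bases, and PRMT4A matched PRMT4B at 30 of 33. Over the whole coding sequence, identity was 78.2% for the PRMT1 pair and 82.4% for the PRMT4 pair, against 34.8% to 50.5% for the other 34 pairs. Even in the PRMT1 pair 99.8% of all stretches of 50 bases were unique to their gene, and in the other 7 genes 100%, so that reads of that length could be told apart between the copies. The read length was not given in the sources used here.

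The genes are spread over all 5 chromosomes (positions in TAIR10.1). PRMT3 (AT3G12270) lies at chr3:3910481-3913376 on the plus strand with 7 exons, and its loop lies within 1 exon at chr3:3912242-3912274. Among the near copies, PRMT1A (AT2G19670) lies at chr2:8499000-8501294 on the minus strand and PRMT1B (AT4G29510) at chr4:14491622-14494001 on the plus strand, with 9 exons each. PRMT4A (AT5G49020) lies at chr5:19871191-19874974 on the plus strand and PRMT4B (AT3G06930) at chr3:2185129-2189434 on the minus strand. Both have 15 exons, and in both an intron divides the loop. PRMT10 (AT1G04870) lies at chr1:1373234-1375821 on the minus strand with 7 exons, and PRMT6 (AT3G20020) at chr3:6983702-6988101 on the minus strand with up to 13. PRMT5 (AT4G31120) lies at chr4:15132011-15136696 on the minus strand and has 23 exons, the highest number in the family. PRMT7 (AT4G16570) lies at chr4:9336696-9340869 on the plus strand with 14 exons. Exons of 5 members overlap a gene on the other strand, by 346 of 1559 exon bases (22.2%) in PRMT1A, by 91 bases (5.91%) in PRMT1B and by 25 to 50 bases in PRMT3, PRMT4A and PRMT5. The libraries kept strand, per the labels' protocols, but the strand setting of the counting was not given in the sources used here. Reads in those overlaps may thus have been left out as lying in both genes, or counted for either gene.

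PRMT3, a type I enzyme whose partner and substrate in fission yeast and mammals is ribosomal protein S2, checks the label of the atprmt3 library. Its level per length, in reads scaled to exon length and library size (RPKM), was 7.05 in Col library 1 and 7.58 in Col library 2, against 3.15 for atprmt3 and 8.82 for rps2a2b. The atprmt3 library was therefore the lowest of the 4, its 95% interval of 2.63 to 3.73 lay apart from that of summed Col (6.68 to 7.99), and PRMT3 reads were still present. PRMT3 stood 1.49 log2 units higher in rps2a2b than in atprmt3 (95% interval 1.19 to 1.79, widened interval 0.77 to 2.20, widest 0.57 to 2.40), a ratio of 2.80. Of all tested genes, 3.38% differed at least as much in that direction. Against Col, PRMT3 was lower by 1.22 log2 units in atprmt3, with a widened interval of -1.95 to -0.48 and a widest one of -2.16 to -0.28, and 4.62% of all tested genes were as low or lower. The log2 difference of rps2a2b from Col was 0.27, with a counting interval of 0.06 to 0.48 and a widened interval that included 0. Without Col library 1 its counting interval, -0.02 to 0.46, also included 0.

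The rps2a2b label was checked on the RPS2 genes. RPS2A was measured at 21.6 CPM (counts scaled to library size) in Col, 30.7 in atprmt3 and 10.4 in rps2a2b, so the library labelled rps2a2b was the lowest. Of the RPS2A stretches of 50 bases 72.3% were unique, so its counts may cover only part of the gene. RPS2B had 0 counts in all 4 libraries, and 0% of its stretches of 50 bases were unique, so it gives no check. RPS2C was at 356, 414 and 390 CPM in the same order, and RPS2D at 11.6, 22.0 and 23.6 CPM.

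PRMT1B, one of a pair of PRMT1-like type I enzymes, had the highest level per length of the family in every library. It was measured at 20.1 and 20.7 RPKM in Col, 22.1 in atprmt3 and 22.5 in rps2a2b. Its partner PRMT1A was measured at 8.52 and 7.18 RPKM in Col, 9.92 in atprmt3 and 9.45 in rps2a2b. Both mutant libraries lay above both Col libraries for each gene. How many of all tested genes had both mutant libraries on one side of both Col libraries was not counted, for this or any such order given below. Against summed Col the log2 difference of PRMT1A was 0.34 (0.11 to 0.56) in atprmt3 and 0.27 (0.03 to 0.51) in rps2a2b, and without Col library 2 these were 0.22 (-0.05 to 0.49) and 0.15 (-0.13 to 0.43), with intervals that included 0. That of PRMT1B was 0.12 (-0.03 to 0.26) and 0.14 (-0.01 to 0.30), with intervals that included 0. With libraries scaled by total counts alone, the PRMT1B differences were 0.18 (0.04 to 0.33) and 0.28 (0.12 to 0.43). With upper-quartile factors they were 0.15 (0.005 to 0.30) and 0.16 (0.01 to 0.32). Under either scaling the intervals left out 0. The ratio of PRMT1B to PRMT1A per length was 2.60 in Col (95% interval 2.30 to 2.94), 2.23 in atprmt3 (1.94 to 2.57) and 2.38 in rps2a2b (2.04 to 2.79), and these intervals overlap. The gene that overlaps PRMT1A on the other strand, AT2G19680, stood 0.37 log2 units above Col in atprmt3 and 0.96 in rps2a2b. Whether the overlap added reads to PRMT1A or took reads from it, and so moved the ratio of the pair, was not tested.

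PRMT4A and PRMT4B, the pair of counterparts of the animal histone H3 methylase CARM1, act redundantly in flowering time. PRMT4B was measured at 11.9 and 12.0 RPKM in Col, 16.5 in atprmt3 and 15.2 in rps2a2b. Both mutant libraries lay above both Col libraries, and their intervals (15.2 to 17.8 and 13.9 to 16.6) did not overlap that of Col (11.1 to 12.8). The difference in atprmt3, 0.46 on the log2 scale, was the only one above 0 among the members whose widened interval left out 0 (0.02 to 0.90), while its widest interval included 0 (-0.10 to 1.02), and 21.7% of all tested genes were at least as much higher. In rps2a2b the difference was 0.35 with a widened interval of -0.11 to 0.81. PRMT4A was measured at 13.3 and 12.3 RPKM in Col, 14.9 in atprmt3 and 13.9 in rps2a2b. Its log2 differences of 0.22 and 0.12 were smaller than those of its partner, and the second had an interval that included 0, as did the first without Col library 2 (0.17, -0.02 to 0.36). With total counts alone the PRMT4A difference in rps2a2b was 0.25 (0.08 to 0.42), which left out 0. PRMT4A to PRMT4B per length was 1.07 in Col (0.968 to 1.19), 0.906 in atprmt3 (0.808 to 1.02) and 0.916 in rps2a2b (0.805 to 1.04), so each ratio included equality and all 3 intervals overlap. Summed over the pair, the level was 50.9 CPM in Col, 64.6 in atprmt3 and 59.9 in rps2a2b, and the log2 difference of atprmt3 from Col was 0.34 (0.23 to 0.45, widened 0.03 to 0.65, widest -0.06 to 0.74).

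PRMT10, a type I enzyme found in plants that methylates histone H4 arginine 3 and acts on flowering time, lay above Col in atprmt3 and, by a smaller difference, below it in rps2a2b. It was measured at 14.5 and 15.3 RPKM in Col, 19.1 in atprmt3 and 12.7 in rps2a2b. The intervals in atprmt3 (17.5 to 20.7) and rps2a2b (11.4 to 14.1) overlap neither each other nor, for atprmt3, that of Col (13.9 to 16.0). The log2 difference from Col was 0.35 (0.19 to 0.51) in atprmt3 and -0.23 (-0.42 to -0.04) in rps2a2b, and both widened intervals included 0. The difference in rps2a2b was -0.10 (-0.29 to 0.09) with libraries scaled by total counts alone and -0.19 (-0.41 to 0.03) without Col library 2, with intervals that included 0. Between the mutants, rps2a2b was lower by 0.59 log2 units, a ratio of 0.666, with a widened interval of -1.06 to -0.11 and a widest one of -1.19 to 0.02, and 9.78% of all tested genes were as low or lower.

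PRMT6, another type I member, was measured at 8.24 and 7.94 RPKM in Col, 5.88 in atprmt3 and 7.13 in rps2a2b. Both mutant libraries lay below both Col libraries, and the interval of atprmt3 (5.11 to 6.73) did not overlap that of Col (7.37 to 8.86). The log2 difference of atprmt3 was -0.46 (-0.70 to -0.22), with a widened interval that included 0 (-1.11 to 0.19), and 18.6% of all tested genes were as low or lower. In rps2a2b it was -0.18 (-0.42 to 0.05).

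PRMT5, also known as SKB1 and CAU1, is the type II enzyme of the family and is known for its roles in splicing, flowering and the circadian clock. It was measured at 17.9 and 16.8 RPKM in Col, 17.3 in atprmt3 and 18.4 in rps2a2b. The mutant libraries lay within or just above the range of the Col libraries, with log2 differences of -0.01 (-0.14 to 0.12) and 0.08 (-0.06 to 0.22). With total counts alone the difference in rps2a2b was 0.21 (0.08 to 0.35), which left out 0. PRMT7, whose animal counterpart makes monomethylarginine, was the lowest member in every library, at 2.17 and 2.55 RPKM in Col, 2.34 in atprmt3 and 2.04 in rps2a2b. With 81 to 109 counts a library, its log2 differences of -0.01 (-0.37 to 0.34) and -0.21 (-0.61 to 0.18) both had intervals that included 0, and a smaller difference was not detectable at this depth.

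**Figure D1:**
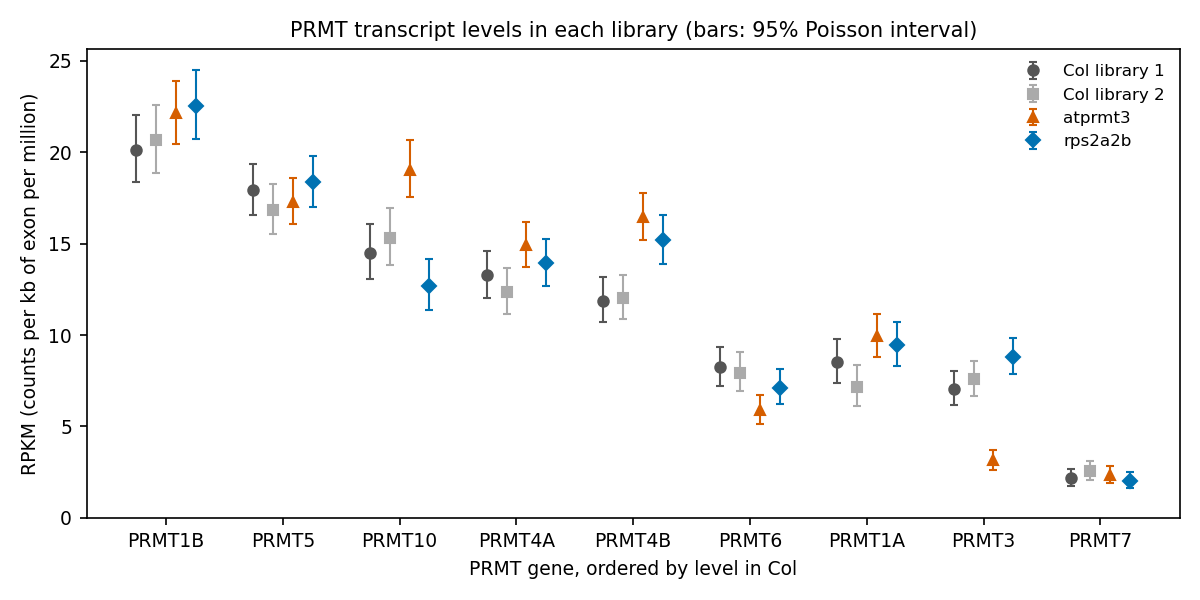
Level per length (RPKM) of each PRMT gene in the 4 libraries, with 95% Poisson counting intervals as bars. PRMT1B was highest and PRMT7 lowest in all 4, the atprmt3 library was lowest for PRMT3 at 3.15 RPKM, and PRMT10 was highest in atprmt3 and lowest in rps2a2b.

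In the order of levels per length in Col, PRMT1B was followed by PRMT5, PRMT10, PRMT4A, PRMT4B, PRMT6, PRMT1A, PRMT3 and PRMT7. The intervals of PRMT4A and PRMT4B overlapped, as did those of PRMT6 and PRMT1A and of PRMT1A and PRMT3, and the other 5 neighbouring pairs did not. In atprmt3 PRMT10 came second, and the 5 highest members overlapped from each to the next. There PRMT3 lay next to PRMT7 with overlapping intervals, which they did not have in Col or rps2a2b. In rps2a2b PRMT10 took the fifth place, behind PRMT1B, PRMT5, PRMT4B and PRMT4A.

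Against Col, 1 of the 9 members, PRMT3, was at least 1.5-fold lower in atprmt3, where 13.9% of all tested genes were, and 0 were at least 1.5-fold higher, where 17.3% were. In rps2a2b 0 of 9 members were at least 1.5-fold higher or lower, against 18.2% and 14.0% of all tested genes. Between the mutants, PRMT3 was higher in rps2a2b by that measure and PRMT10 lower, against 11.6% and 9.80% of all tested genes. In atprmt3 the counting interval lay above 0 in 4 members (PRMT1A, PRMT4A, PRMT4B and PRMT10), against 33.3% of all tested genes, and below 0 in 2 (PRMT3 and PRMT6), against 31.7%. In rps2a2b it lay above 0 in 3 (PRMT1A, PRMT3 and PRMT4B), against 32.5%, and below 0 in PRMT10, against 31.6%. By the widened interval 1 member lay above 0 in atprmt3 (PRMT4B, with 11.1% of all tested genes) and 1 below (PRMT3, with 12.0%). In rps2a2b 0 members lay above (10.6%) or below (11.9%). Between the mutants PRMT3 alone lay above 0 and PRMT10 alone below, by the counting interval (24.4% and 24.5% of all tested genes) and by the widened one (5.58% and 5.95%). By the widest interval PRMT3 alone was left, below 0 in atprmt3 against Col and above 0 between the mutants. For the widest interval the share of all tested genes was not taken, so this count has no background to be read against.

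Past 0.32 on the log2 scale, 3 members were higher than Col in atprmt3 (PRMT1A, PRMT4B and PRMT10, with 28.5% of all tested genes) and 2 lower (PRMT3 and PRMT6, with 25.7%). Of the 3, PRMT1A fell short of that size without Col library 2 (0.22) and PRMT10 without Col library 1 (0.31). In rps2a2b 1 was higher (PRMT4B, with 29.0%) and 0 lower (26.0%). Without Col library 1, PRMT1A was also past it (0.40) and PRMT7 lower (-0.32), and without Col library 2, PRMT3 was also past it (0.32). Between the mutants PRMT3 was higher (21.3%) and PRMT10 lower (20.1%). Past 2-fold, PRMT3 was the one member left, lower in atprmt3 than in Col (6.36%) and higher in rps2a2b than in atprmt3 (5.98%). There 0 members were higher in atprmt3 than in Col (9.04%) or lower in rps2a2b than in atprmt3 (4.73%).

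The median log2 difference over the 9 members was 0.12 in atprmt3 and 0.12 in rps2a2b, beside 0.01 and 0.01 over all tested genes, both measured against the same Col libraries. The interquartile range of all tested genes spanned -0.34 to 0.39 in atprmt3 and -0.34 to 0.40 in rps2a2b, and 6 and 9 of the 9 members lay inside it. Against the same Col libraries for both, 5 members were higher than Col in atprmt3 and 6 in rps2a2b, beside 50.6% and 50.5% of all tested genes. Between the mutants the median was -0.07, beside 0.00, and 6 of 9 members lay within the interquartile range of -0.25 to 0.26. Between the Col libraries the members differed by -0.25 (PRMT1A) to 0.23 (PRMT7), and all 9 intervals included 0.

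**Figure D2:**
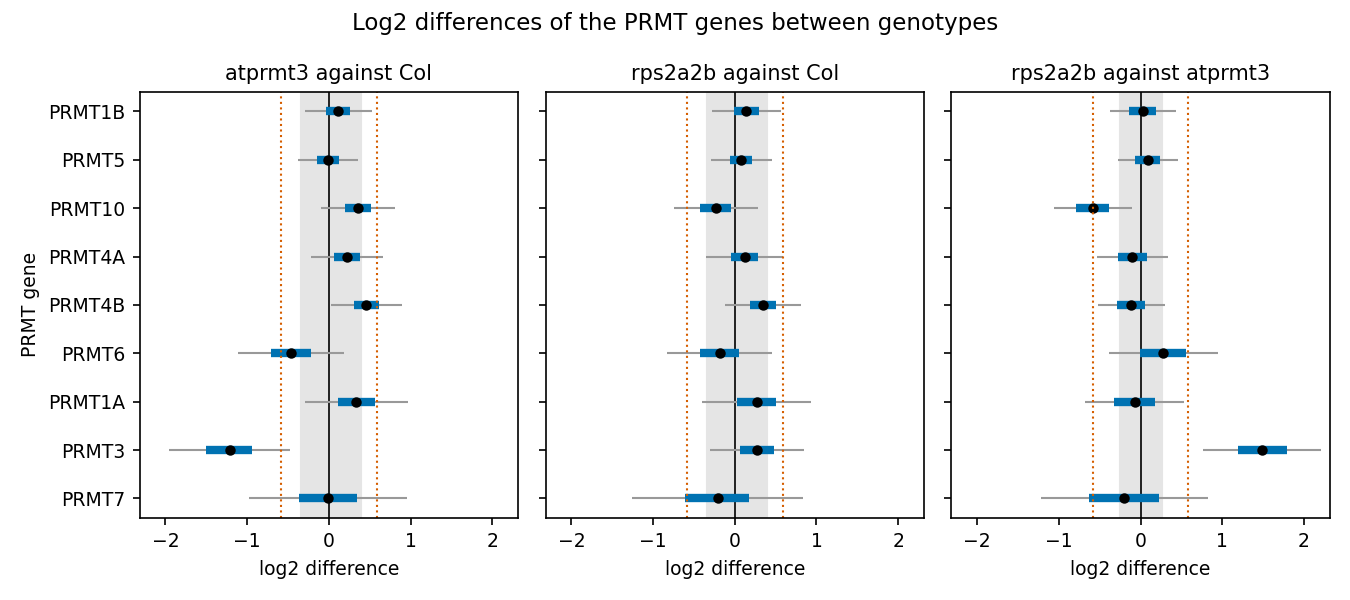
Log2 difference of each PRMT gene in 3 comparisons (black points), with the 95% counting interval (thick blue) and the widened interval (thin gray). The gray band is the interquartile range of all tested genes and the dotted orange lines mark 1.5-fold. PRMT3 lies at -1.22 in atprmt3 against Col and at 1.49 between the mutants, and all 9 members lie within the band in rps2a2b against Col.

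The family held 0.0191% and 0.0189% of all gene counts in Col, 0.0212% in atprmt3 and 0.0223% in rps2a2b, log2 differences of 0.16 and 0.23 by total counts. With libraries scaled by TMM factors, its summed level was 198 and 195 CPM in Col, against 209 for atprmt3 and 211 for rps2a2b. Both mutant libraries lay above both Col libraries, and the log2 differences were 0.09 (0.03 to 0.15, widened -0.07 to 0.25) and 0.10 (0.04 to 0.16, widened -0.07 to 0.27), smaller than by total counts. Between the mutants it was 0.01 (-0.06 to 0.08). Without PRMT3, the other 8 genes summed to 180 CPM in Col, 202 in atprmt3 and 191 in rps2a2b, at log2 differences from Col of 0.16 (0.10 to 0.22) and 0.08 (0.02 to 0.15). The widened interval in atprmt3 ran from -0.00 to 0.33.

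Shares of the family total per kilobase show how the members were apportioned and do not depend on how libraries were scaled. PRMT3 held 7.10% (95% interval 6.50 to 7.73) in Col, 2.83% (2.37 to 3.35) in atprmt3 and 8.00% (7.17 to 8.90) in rps2a2b. PRMT10 held 14.5% (13.5 to 15.5), 17.1% (15.9 to 18.4) and 11.5% (10.4 to 12.7), and the 3 intervals overlap nowhere. PRMT4B held 11.6% (10.8 to 12.4), 14.8% (13.8 to 15.9) and 13.8% (12.7 to 15.0), so that both mutants lay above Col. PRMT6 held 7.85% (7.18 to 8.57), 5.29% (4.61 to 6.03) and 6.47% (5.66 to 7.36), with atprmt3 below Col. The highest share was that of PRMT1B, at 19.8%, 19.9% and 20.5%, followed in Col by PRMT5 at 16.9%, with 15.6% in atprmt3 and 16.7% in rps2a2b. For PRMT1B, PRMT5, PRMT4A and PRMT7 the intervals of all 3 genotypes overlap, as they do for PRMT1A, whose share was 7.62% in Col, 8.93% in atprmt3 and 8.58% in rps2a2b.

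A loss of PRMT3 reads raises the share of every other member by construction, so shares were also taken over the 8 members without it. On that base PRMT10 held 15.6% in Col, 17.6% in atprmt3 and 12.5% in rps2a2b, and PRMT4B 12.5%, 15.2% and 15.0%. PRMT6 held 8.45%, 5.44% and 7.03%, and PRMT5 18.1%, 16.0% and 18.1%. The order of the genotypes for PRMT10, PRMT4B and PRMT6 was the same with and without PRMT3 in the total.

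**Figure D3:**
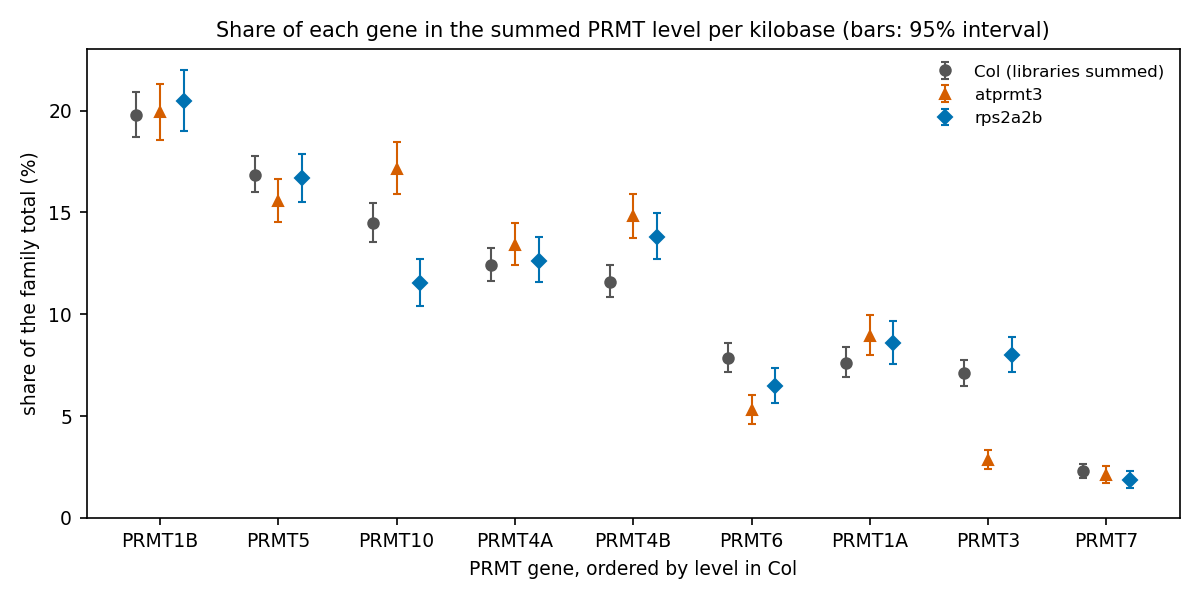
Share (%) of each PRMT gene in the family total per kilobase in summed Col, atprmt3 and rps2a2b, with 95% intervals as bars. The PRMT3 share was 2.83% in atprmt3 against 7.10% in Col, and the PRMT10 share was 17.1% in atprmt3 and 11.5% in rps2a2b, on either side of 14.5% in Col.

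Genes that supply and recycle the methyl donor were read beside the family. Of 14 tested, 2 were at least 1.5-fold higher in atprmt3 than in Col (17.3% of all tested genes), ADK2 and MAT4, and 0 were lower (13.9%). In rps2a2b 0 were higher (18.2% of all tested genes) and 0 lower (14.0%). The median log2 difference was 0.20 in atprmt3 and -0.01 in rps2a2b, beside 0.01 over all tested genes in each. MAT4, an S-adenosylmethionine synthetase, was measured at 277 CPM in Col, 485 in atprmt3 and 387 in rps2a2b, at log2 differences of 0.81 and 0.48. MAT3, another synthetase, was at 197, 295 and 241 CPM (0.58 and 0.29), while SAM1, also a synthetase, was at 700, 491 and 504 CPM (-0.51 and -0.47). The synthetases therefore did not lie on one side of Col. ADK2, an adenosine kinase that clears the adenosine of spent donor, was at 63.8, 98.9 and 80.0 CPM, and SAHH2, a hydrolase of S-adenosylhomocysteine, at 188, 274 and 227 CPM, with atprmt3 highest in both. Their relatives, chosen after their values were seen, did not follow them throughout. SAHH1, the hydrolase gene with the higher level, was at 1701, 1565 and 1259 CPM (-0.12 and -0.43). ADK1 was at 239, 299 and 232 CPM (0.32 and -0.05).

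Of 20 partners, substrates, readers and arginine demethylases, 5 were at least 1.5-fold higher in atprmt3 (PICLN, SMD1A, SMD1B, FIB2 and JMJ22) and 2 lower (SMB-a and MBD7), beside 17.3% and 13.9% of all tested genes. In rps2a2b 5 were higher (PICLN, SMD1B, FIB2, JMJ20 and JMJ22) and 0 lower, beside 18.2% and 14.0%. The medians were 0.09 and 0.05, beside 0.01 and 0.01 over all tested genes. JMJ22, a demethylase of histone arginines, was measured at 4.43 CPM in Col, 14.9 in atprmt3 and 14.7 in rps2a2b, at log2 differences of 1.75 (1.45 to 2.06) and 1.73 (1.42 to 2.05). Its relative JMJ20 was at 5.06, 6.36 and 7.96 CPM (0.33 and 0.65), and the interval in atprmt3, -0.03 to 0.68, included 0. FIB2, a fibrillarin of the nucleolus that modifies ribosomal RNA, was at 24.0 CPM in Col, 53.0 in atprmt3 and 41.8 in rps2a2b (1.14 and 0.80). FIB1, the listed fibrillarin with the higher level, chosen after its values were seen, was at 143, 169 and 138 CPM (0.24 and -0.05). Of the PRMT5 partner and substrates in spliceosome assembly, PICLN was at 5.96, 10.1 and 9.02 CPM (0.76 and 0.60) and SMD1B at 13.4, 21.1 and 20.3 CPM (0.66 and 0.60). The following were chosen after their values were seen, to account for each gene counted. SMD1A stood at 0.71 and -0.15 in atprmt3 and rps2a2b, SMB-a at -0.61 and -0.00, and MBD7, a methyl-DNA-binding protein, at -0.60 and -0.07. For each of them the interval in rps2a2b included 0.

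Genes reported elsewhere to lie downstream of PRMT enzymes numbered 11, of which 10 were tested. At least 1.5-fold higher were 2 in atprmt3 (BHLH38 and BHLH101) and 3 in rps2a2b (FLC, GA3OX1 and BHLH38), and GA3OX2 was lower in both. Of all tested genes 17.3% and 18.2% were that much higher and 13.9% and 14.0% lower. The medians were 0.32 and 0.36, beside 0.01 and 0.01. GA3OX1, an enzyme that makes active gibberellin, was measured at 3.31 CPM in Col, 4.93 in atprmt3 and 7.09 in rps2a2b (0.57 and 1.10). CAS, the calcium-sensing gene repressed by PRMT5, was at 310, 449 and 381 CPM (0.53 and 0.30), and CRN, a receptor-like protein of the meristem, at 12.3, 9.91 and 14.4 CPM (-0.31 and 0.22). The interval of CRN in rps2a2b, -0.02 to 0.46, included 0. BHLH100, a transcription factor of iron deficiency, was at 5.33, 6.25 and 6.65 CPM. Its differences of 0.23 (-0.12 to 0.58) and 0.32 (-0.05 to 0.68) had intervals that included 0. Chosen after their values were seen, FLC, the floral repressor, had 40 counts in summed Col, 33 in atprmt3 and 60 in rps2a2b, at ratios to Col of 1.32 and 2.82 by scaled counts. The interval of FLC in atprmt3, -0.31 to 1.10 on the log2 scale, included 0. GA3OX2 had 86, 9 and 25 counts (-2.58 and -0.87), and BHLH38 stood at 1.06 and 0.75. BHLH101 had 39, 37 and 28 counts and stood at 0.60 (-0.09 to 1.29) and 0.43 (-0.32 to 1.17), with intervals that included 0. FT, the mobile flowering signal, had 8 counts in summed Col and 0 in either mutant, where a count of 0, read as at most 3 counts, allows up to 0.159 CPM in atprmt3 and 0.187 CPM in rps2a2b, and the two-sided 95% Poisson limit is 0.195 and 0.229 CPM.

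**Figure D4:**
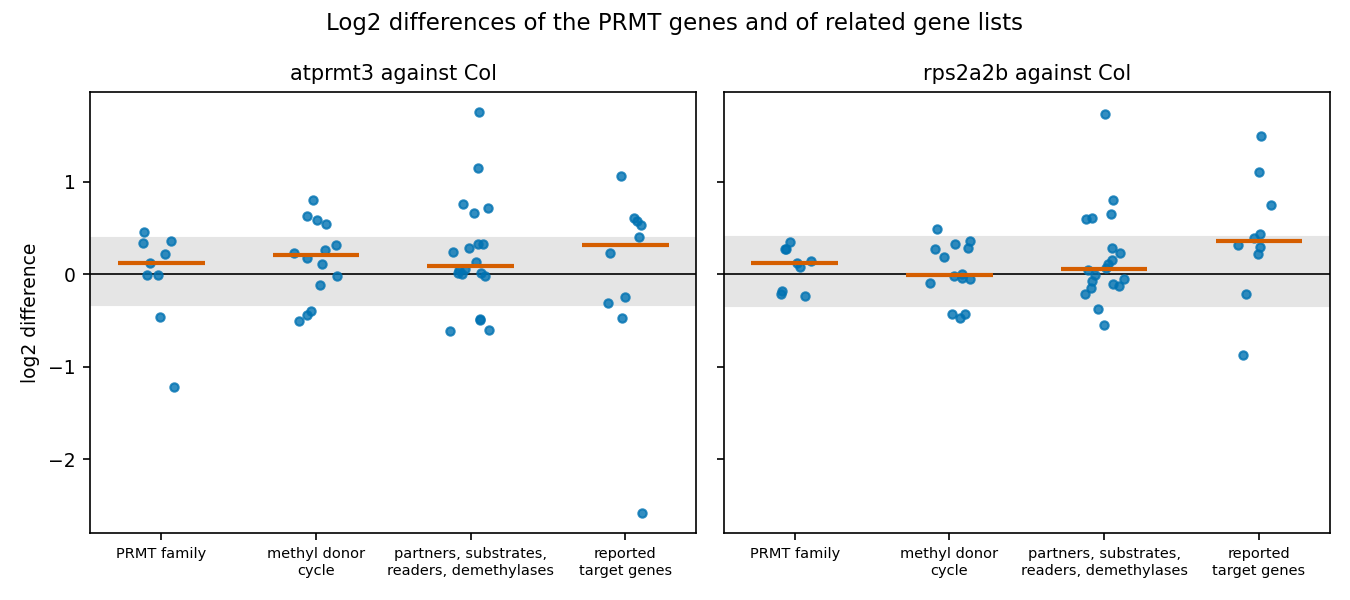
Log2 difference from Col of each tested gene of the PRMT family and the 3 related lists (points), with list medians as orange bars, in atprmt3 and rps2a2b. The gray band is the interquartile range of all tested genes. List medians lie between -0.01 and 0.36, and GA3OX2 at -2.58 and JMJ22 at 1.75 in atprmt3 stand furthest out.

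Marker genes of several tissues and cell states differed in level between the genotypes. Summed over 4 markers, genes of dividing cells were measured at 44.2 CPM in Col, 105 in atprmt3 and 97.2 in rps2a2b, with all 4 above Col in both mutants. Seed storage and oil body genes summed to 42.4, 653 and 1272 CPM, again with all 4 above Col in both. The 4 green leaf markers summed to 23111, 18723 and 15302 CPM, with 2 of 4 below Col in atprmt3 and 4 of 4 in rps2a2b. The 4 root markers summed to 142, 120 and 113 CPM, with 2 of 4 below Col in each mutant, and the 3 flower markers to 0.596, 0 and 0.187 CPM, with AP1 at 0 counts in every library. The part of these markers in the PRMT values and in those of the related lists was not tested.

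Among the 12312 genes outside the family with at least 10 CPM on average, the 3 whose pair of log2 differences from Col lay nearest to that of PRMT3 were AGF2, AT4G23440 and ABCG33. AGF2 (AT3G55560) stood at -1.004 in atprmt3 and 0.12 in rps2a2b, AT4G23440 at -0.99 and 0.12, and ABCG33 (AT2G37280) at -1.07 and 0.04, at distances of 0.259, 0.270 and 0.273. Likeness was taken over 2 differences that share the Col libraries. RBR1 (AT3G12280), the retinoblastoma-related gene whose end overlaps PRMT3 by 28 bases on the other strand, was measured at 53.2 CPM in Col, 53.3 in atprmt3 and 49.7 in rps2a2b. Its log2 difference in atprmt3 was 0.00 (-0.11 to 0.12), so the neighbour that shares bases with PRMT3 did not share its lower counts.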

How the data were processed

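Whole-seedling mRNA was measured in strand-specific libraries (Trizol extraction, dUTP method, per the labels' protocols). The authors deposited raw counts of reads per gene for each library, made with TopHat2 and HTSeq on TAIR10, per the submitters' processing notes, which also name edgeR and give no versions. Reads without a gene (1.37% to 1.80%), in more than one gene (2.25% to 3.26%) or not uniquely aligned (6.74% to 7.16%) were left out. Counts were scaled by TMM factors (edgeR 4.0.16, R 4.3.3) set on the genes passing filterByExpr (minimum count 10, minimum total 15), and by exon length from RefSeq TAIR10.1 for RPKM. DESeq2 1.42.0 gave alternative size factors only. With 1 sample a genotype, differences carry exact binomial (Clopper-Pearson) intervals at 95% and no p, and a fold of 1.5 (0.58 on the log2 scale) counts as apart. Levels between genes are compared only per length. The members and gene lists were chosen with earlier results of these data known. Of each list up to 5 genes were named, those with the largest log2 difference from Col in either mutant and at least 5 CPM. Beside them stand all PRMT genes, RPS2 genes as label checks, and the 3 genes nearest to PRMT3 by Euclidean distance over both differences.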

Additional observations from a re-analysis of the deposited data

How the results depend on the processing

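Library scaling by DESeq2 size factors, upper-quartile factors, total counts or unfiltered genes left all 144 log2 differences of members other than PRMT3, leave-out settings included, within the counting intervals of the reported values, although some crossed 0 or the threshold. A change of scaling moves all genes of a comparison by the same amount, so the 144 are not separate checks. Total counts alone moved the median of all genes by 0.07 in atprmt3 and 0.13 in rps2a2b against Col, and the family total to 0.16 and 0.23. PRMT10 between the mutants lay just past 1.5-fold: members lower by the threshold numbered 0 in place of 1 with DESeq2 size factors, with total counts and at a fold of 2. At a threshold of 0.32 on the log2 scale, atprmt3 against Col had 3 members higher and 2 lower, and rps2a2b 1 higher. With the widened variance, members with an interval above 0 numbered 1 in atprmt3 and 0 in rps2a2b, and below 0 numbered 1 and 0. With the factor of genes counted like the members, they numbered 0 above in each mutant against Col, 1 below in atprmt3, 0 below in rps2a2b and 0 below between the mutants. No share of all tested genes was taken with that factor. With total counts, 6 in place of 3 lay above 0 in rps2a2b against Col, 0 in place of 1 below, and 3 in place of 1 above between the mutants, where DESeq2 size factors gave 2. PRMT1B also came to lie above 0 in atprmt3 with total counts, and in both mutants with upper-quartile factors. No share of all tested genes was taken under these scalings. Total counts moved all genes of a comparison alike, so the shares given above do not apply to these counts. These interval counts were chosen after seeing the data. By raw counts without length, PRMT3 held 8.26% in Col and 9.29% in rps2a2b, and PRMT5 came first, with 20.5%, 19.2% and 20.3% in Col, atprmt3 and rps2a2b.

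With either Col library left out, PRMT3 lay at -1.27 to -1.16 in atprmt3, 0.22 to 0.32 in rps2a2b and 1.49 between the mutants, and its Col share at 6.80% to 7.39%. The family median lay at 0.10 to 0.14, 0.07 to 0.12 and -0.07, and the family total at 0.08 to 0.10, 0.09 to 0.11 and 0.01. Counts of members past 1.5-fold stayed at 0 higher and 1 lower in atprmt3, 0 and 0 in rps2a2b, and 1 and 1 between the mutants. Members with an interval above 0 numbered 2 to 4 in atprmt3, 2 in rps2a2b and 1 between the mutants, and below 0 they numbered 2, 0 to 1 and 1. The values between the mutants hold no Col library. Leaving one out could move them only through the scaling factors, so their steadiness is no check. Shares of all tested genes were not taken with a Col library left out. No paired analysis was possible because each mutant has 1 library.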

Other observations

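Some neighbours of PRMT genes, chosen after their values were seen, stood further from Col than the members. AT1G04880, which lies 2 bases from PRMT10, had 25 and 21 counts in the Col libraries and 1 in each mutant, a log2 difference of -4.84 in atprmt3 (95% counting interval -10.18 to -2.29) and of -4.61 in rps2a2b (-9.95 to -2.06). AT2G19660, 192 bases from PRMT1A, had 23 and 15 counts in Col, 66 in atprmt3 and 19 in rps2a2b, a log2 difference of 1.48 (0.88 to 2.09) in atprmt3 and of -0.09 (-0.97 to 0.74) in rps2a2b.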
